A study of Drosophila melanogaster with 6 samples.

Results

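The genes described here are 8 amino acid transporters of the Drosophila melanogaster gut, NAAT1, path, slif, mnd, JhI-21, gb, CG1139 and CG8785. They were taken by symbol from the 17411 genes counted in each library. All 8 were found and all passed the low-count filter, with CG1139 carrying the symbol acs in the Ensembl annotation. The choice did not use measured values in these libraries, although earlier results from the same data were known when the genes were listed. The data are RNA-seq of polyA-selected RNA from 3 libraries of genotype Mex-Gal4>9G8RNAi and 3 of genotype Mex-Gal4>GFPdsRNA, each group having replicates lettered A, B and D. Both groups carry Mex-Gal4, a driver active in enterocytes of the midgut, so other cells of the intestine are not targeted by it. The first group expresses RNAi against the splicing factor 9G8 (gene x16), and the second a double-stranded RNA against GFP as control. Neither age, sex nor the number of flies per library is known from the labels, and nothing states that libraries of a group came from separate cohorts, so p-values measure the spread between these libraries, which may be technical.

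The labels disagree on tissue, since the control libraries are given fat bodies as their source, and a yolk driver appears in the text on the design. If tissue did differ between the groups, that difference could not be told apart from an effect of the RNAi. Levels are in CPM, the count scaled to a fixed library total, and markers were summed in CPM of total counts. Markers of midgut enterocytes, 10 genes including trypsins and mex1, summed to between 53450 and 194700 CPM in the controls and to between 81150 and 151900 CPM under 9G8 RNAi. Proteases made up most of that sum: after TMM scaling alphaTry, Jon99Cii and betaTry averaged 69670, 47450 and 15760 CPM. On the same scale mex1 measured 128.1 to 319.1 CPM and nub 38.85 to 68.74 CPM. Log2 fold changes of the 10, 9G8-RNAi minus control, ran from -1.425 (Mal-A1) to 1.688 (Npc2f), 5 above and 5 below 0. The 9 fat body markers summed to between 116 and 628 CPM in the controls and between 136 and 507 CPM under 9G8 RNAi. After TMM scaling the yolk protein genes of that list were present in all 6 libraries, Yp1 at 17.9 to 130.4 CPM, Yp2 at 16.01 to 122.6 CPM and Yp3 at 29.7 to 257.8 CPM, as were apolpp at 6.61 to 52.2 CPM, Tep4 at 8.39 to 76.3 CPM and fon at 0.93 to 42.1 CPM. The storage protein gene Lsp2 and the fat body protein genes Fbp1 and Fbp2 did not exceed 0.152 CPM, and the part of fat body in the results was not tested. Total counts ran from 26216430 to 66562756 per library. Control replicate A stood apart, with each of the 7 muscle markers highest there. They summed to 5544 CPM against 139 to 360 CPM elsewhere. The 4 hindgut markers summed to 93.0 CPM against 1.85 to 8.46 CPM, but only 2 of the 4 were highest there. Those of Malpighian tubule summed to 1711 CPM against 335 to 664 CPM, with 5 of 7 highest there. On this scale of total counts 65.2% of all tested genes were highest in control replicate A. All later CPM carry TMM factors, edgeR's trimmed-mean correction of library size, unless total counts are named, and values per library follow the order A, B, D, RNAi first. The target x16 was at 6.37, 11.5 and 6.59 CPM under 9G8 RNAi against 8.29, 7.14 and 20.02 CPM (edgeR adjusted p = 0.918), so a lower level of the target was not detectable.

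Enterocytes take up free amino acids through carriers in their membranes, and the same carriers feed the sensing of nutrients by the TORC1 kinase complex. NAAT1 belongs to the SLC6 family of sodium-coupled carriers and takes a broad range of neutral amino acids. The SLC36 family, named for carriers that move small amino acids together with protons, is represented by path, CG1139 and CG8785. The SLC7 family is represented by slif, a carrier of cationic amino acids such as arginine, by mnd and JhI-21, which resemble the leucine carriers of the LAT group, and by gb, which resembles the cystine and glutamate exchanger and is known for its role in glia.

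In the deposited gene models (BDGP6), path (FBgn0036007, 9494555 to 9505328), slif (FBgn0037203, 22881045 to 22893821), mnd (FBgn0002778, 14985100 to 14991667) and CG1139 (FBgn0035300, 1971638 to 1974285) lie on chromosome arm 3L. NAAT1 (FBgn0029762, 5405238 to 5410849) is on X, JhI-21 (FBgn0028425, 12051755 to 12056042) on 2L, gb (FBgn0039487, 27108467 to 27112270) on 3R and CG8785 (FBgn0033760, 12640690 to 12648224) on 2R. Exonic length ran from 1578 bases for CG1139 to 3195 bases for path, and the counted models held from 5 exons in slif and mnd to 10 in JhI-21. All 8 genes therefore have introns, but a count per gene does not show how they were spliced. Exons of gb share 865 bases, 32.8% of its exonic length, with the antisense gene asRNA:CR45209, and those of JhI-21 share 295 bases, 12.5%, with PLCXD on the other strand. No label states whether the counting used strand, so reads of these pairs cannot be told apart. The antisense gene had 8 to 63 counts per library where gb had 126 to 871, and PLCXD had 18 to 71 where JhI-21 had 62 to 299.

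The 8 transporters fell into an abundant and a scarce set, each of 4 genes. Measured as TMM-scaled CPM per kilobase of exon, CG8785 was highest in every library, at 137.6 ± 11.7 (SD, n = 6). It was followed by slif at 50.6 ± 16.02, NAAT1 at 41.6 ± 13.1 and path at 24.8 ± 5.99. Well below them came gb at 3.31 ± 1.29, CG1139 at 2.43 ± 1.30, mnd at 1.48 ± 0.56 and JhI-21 at 1.44 ± 0.29 CPM per kilobase (SD, n = 6 for each). The lowest value of path, 16.8 in 9G8-RNAi replicate A, lay above the highest value of gb, 4.95 in control replicate B. CG8785 also stood clear of slif in all 6 libraries, with no overlap of their ranges. Other neighbours in the order were not separated: slif exceeded NAAT1 in 4 of 6 libraries, NAAT1 exceeded path in 5, gb exceeded CG1139 in 4 and mnd exceeded JhI-21 in 3, and although CG1139 was above mnd in 6 of 6 their ranges overlapped. Among the tested genes, mean levels per kilobase placed CG8785 at percentile 94.8, slif at 89.9, NAAT1 at 88.7, path at 84.3, gb at 50.8, CG1139 at 44, mnd at 33 and JhI-21 at 32.3.

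**Figure D1:**
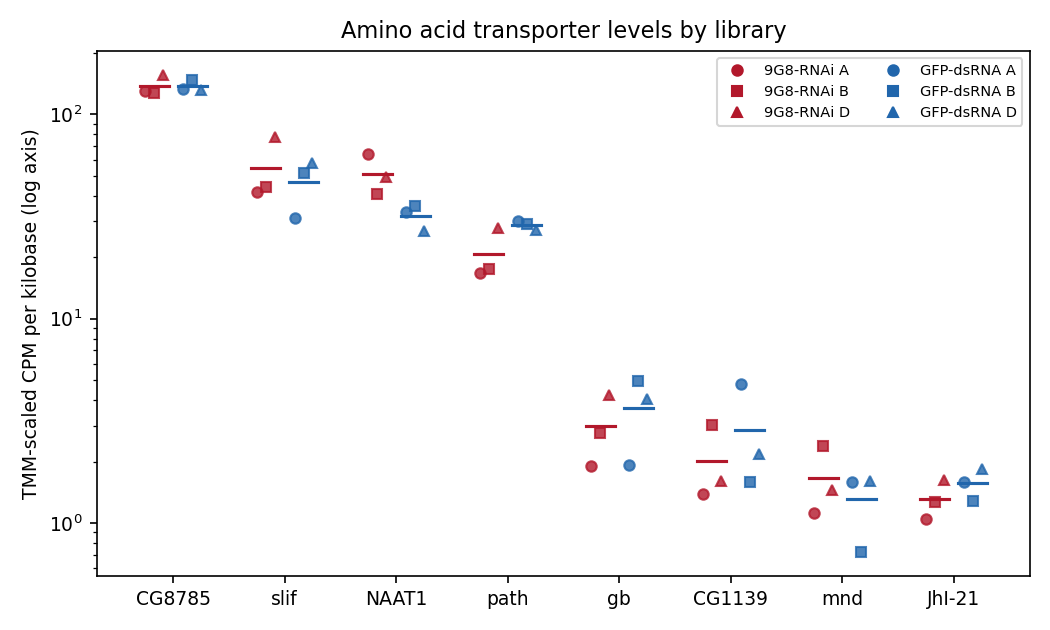
Level of each transporter in TMM-scaled CPM per kilobase of exon (log axis), ordered by mean over 6 libraries; points are libraries, shaped by replicate letter, and bars are means of the 3 libraries of a group. CG8785 is highest in every library, and the 4 scarce genes lie at or below 4.95 in every library.

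The question asked of each gene was whether its level differed when 9G8 was targeted. None of the 8 transporters passed the edgeR quasi-likelihood test at a p of 0.05 adjusted by Benjamini and Hochberg's method over all tested genes, of which 0.118% passed. At an unadjusted p under 0.05 the count was also 0 of 8 in edgeR, against 4.53% of tested genes. DESeq2 gave 0 of 8 adjusted and 1 of 8 unadjusted (NAAT1), against 3.88% of its tested genes unadjusted, and limma-voom 0 of 8 in both, against 3.94% unadjusted. Log2 fold changes, 9G8-RNAi minus control, were above 0 for 4 members and below 0 for 4, with a median of -0.13 beside -0.07 over all 9285 tested genes. The split counts CG8785, at 0.001, as above 0, and the median was -0.29 with total counts and between -0.25 (without 9G8-RNAi replicate D, 6 below 0) and 0.01 (without control replicate B) with 1 library left out. NAAT1 was the only one of the 8 whose groups did not overlap in TMM-scaled CPM, where 8.61% of tested genes had no overlap, and in CPM of total counts the groups overlapped for all 8.

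NAAT1, the SLC6 carrier, was the member with the largest difference above 0. It measured 158, 102 and 122 TMM-scaled CPM under 9G8 RNAi, against 82.4, 88.8 and 66.9 CPM. All 3 RNAi libraries were above all 3 controls on this scale. Group levels were 127 ± 28.6 and 79.4 ± 11.3 CPM (SD, n = 3). The fitted log2 fold change was 0.68 ± 0.33 (SE), with a 95% interval from -0.07 to 1.43 and an edgeR adjusted p of 0.918. In CPM of total counts NAAT1 stood at 135, 86.1 and 143 under 9G8 RNAi, against 138, 98.4 and 42.5. On that scale 2 of the 3 controls were above 9G8-RNAi replicate B, and the log2 fold change was 0.38. The median over all genes moved as well with total counts, from -0.07 to -0.33.

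Among the SLC36 carriers, path leaned the other way. It measured 53.6, 56.3 and 89.1 CPM under 9G8 RNAi, against 96.5, 93.1 and 86.8 CPM. Control libraries lay close together, and 9G8-RNAi replicate D fell inside their range while replicates A and B were below it. For path the log2 fold change came to -0.47 ± 0.33 (SE), its interval running from -1.22 to 0.27 and an edgeR adjusted p of 0.918.

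CG8785, the most abundant of the 8, measured 284, 277 and 343 CPM under 9G8 RNAi, against 293, 322 and 288 CPM. Its group means were 301.3 ± 35.8 and 301.2 ± 18.5 CPM (SD, n = 3), with a log2 fold change of 0.00 ± 0.32 (SE). The interval, from -0.74 to 0.74, allows levels from 0.60 to 1.67 times the control. Across the 6 libraries its highest value was 1.24 times its lowest, and only 0.84% of tested genes had a smaller ratio, where the median ratio was 2.59. This evenness depended on scaling, since in CPM of total counts the ratio for CG8785 was 2.68, with 492 CPM in control replicate A and 183 CPM in control replicate D, and 23.7% of tested genes had a smaller one.

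The third SLC36 carrier, CG1139, stood out in a single library. It measured 2.19, 4.77 and 2.52 CPM under 9G8 RNAi, against 7.54, 2.51 and 3.45 CPM. Control replicate A held the highest value, from 332 counts. In total counts that library had the highest sum of every marker list except haemocytes and midgut enterocytes, and the lowest sum of enterocyte markers. The log2 fold change was -0.51 ± 0.49 (SE, edgeR adjusted p = 0.918) with all libraries, -0.99 with total counts and 0.07 without that control. The part of other tissue in this value was not tested, and in bulk RNA fewer cells of a type cannot be told apart from less RNA per cell.

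Within the SLC7 family, slif was the abundant member, at 130, 138 and 244 CPM under 9G8 RNAi, against 97.6, 162 and 181 CPM. The highest library was 9G8-RNAi replicate D and the lowest control replicate A, and the groups overlapped. Its log2 fold change of 0.22 ± 0.41 (SE, edgeR adjusted p = 0.929) turned to -0.13 without 9G8-RNAi replicate D and to -0.06 without control replicate A. The LAT-like carriers were scarce. For mnd the values were 2.86, 6.06 and 3.71 CPM against 4.06, 1.84 and 4.09 CPM, with a log2 fold change of 0.34 ± 0.42 (SE, edgeR adjusted p = 0.919). The highest RNAi library and the lowest control were both replicate B, the groups overlapped, and the log2 fold change was -0.01 without 9G8-RNAi replicate B. JhI-21 measured 2.47, 2.99 and 3.85 CPM against 3.75, 3.04 and 4.34 CPM, a log2 fold change of -0.25 ± 0.30 (SE, edgeR adjusted p = 0.919). The exchanger gb measured 5.01, 7.30 and 11.2 CPM against 5.09, 13.03 and 10.7 CPM, a log2 fold change of -0.29 ± 0.43 (SE, edgeR adjusted p = 0.921). Both overlapped between groups, and the spread of gb within a group exceeded the distance between the group means of 7.84 and 9.61 CPM.

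**Figure D2:**
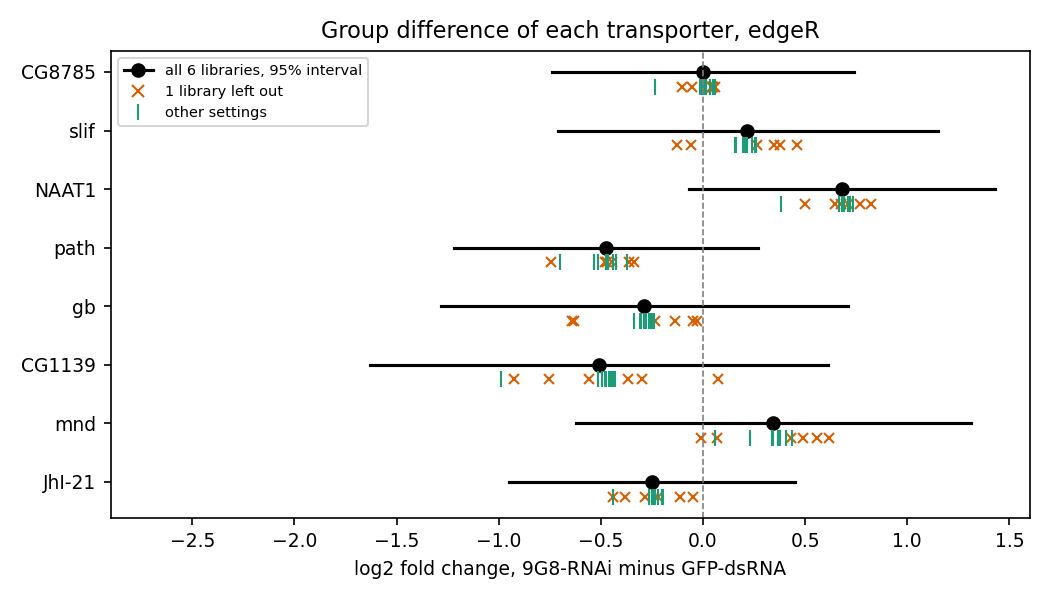
Log2 fold change of each transporter, 9G8-RNAi minus GFP-dsRNA; black points and lines are the edgeR fit to 6 libraries with its 95% interval, crosses leave out 1 library each and ticks are the other settings, DESeq2 and limma-voom included. Every interval spans 0; NAAT1 stays above 0 and path, gb and JhI-21 below 0 under the settings run.

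The 95% intervals show what size of difference these libraries could hide. On the log2 scale the widest was that of CG1139, whose level in 9G8-RNAi could be from 0.32 to 1.53 times the control, and for NAAT1 the range was from 0.95 to 2.69 times. For path it ran from 0.43 to 1.21 times. The smallest count of any member was 55, for CG1139 in 9G8-RNAi replicate A, and the share of counting error in these intervals was not tested.

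Ratios between transporters within a library do not depend on how libraries are scaled. Of the 28 ratios between members, 6 had no overlap between groups, where 9.41% of all pairs of tested genes with no count of 0 had none. Because these pairs share members they are not separate results, and those named here were picked after their values were seen, with no test. The ratio of NAAT1 to path counts was 2.95, 1.81 and 1.37 under 9G8 RNAi, against 0.85, 0.95 and 0.77. NAAT1 thus had more reads than path in each RNAi library and fewer in each control, from at least 1348 counts of either gene. Set against CG8785, NAAT1 stood at 0.56, 0.37 and 0.36 in 9G8-RNAi and 0.28, 0.28 and 0.23 in the controls. For path the ratio to CG8785 was 0.19, 0.20 and 0.26 in 9G8-RNAi and 0.33, 0.29 and 0.30 in the controls. The remaining ratios without overlap were NAAT1 to JhI-21, path to slif and mnd to CG1139.

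**Figure D3:**
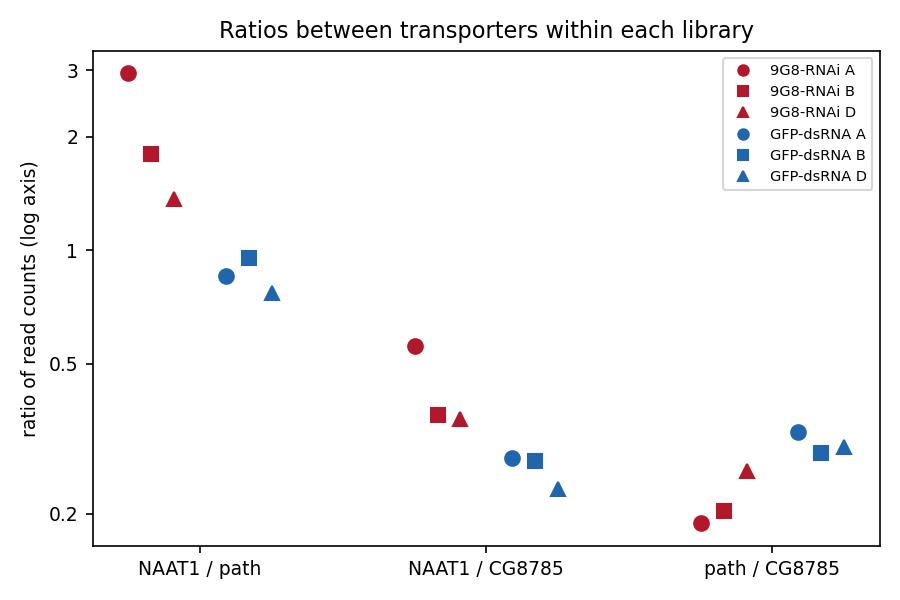
Ratio of read counts between NAAT1, path and CG8785 within each library (log axis), by group and replicate letter. NAAT1 over path lies at 1.37 or more in 9G8-RNAi and at 0.95 or less in the controls; the pairs shown were picked after their values were seen.

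How far members moved together across the libraries depended on the scaling. Given here is Pearson r of log2 CPM over the 6 libraries, which share the 2 groups and their depth. With TMM scaling slif and gb were the most alike pair (r = 0.81, Spearman's rho 0.77), and path and JhI-21 came next (r = 0.74, rho 0.49). NAAT1 ran most opposite to JhI-21 (r = -0.72, rho -0.66) and path (r = -0.63, rho -0.54). With total counts r was 0.85 for slif and gb, 0.96 for path and JhI-21, 0.41 for NAAT1 and JhI-21 and 0.45 for NAAT1 and path, so both negative values turned positive. Of the 3994 tested genes with a mean of at least 10 CPM, those with the highest Pearson r over the 6 libraries were CG14120 for NAAT1 (0.96), CG2004 for path (0.98), ZnT63C, a zinc transporter gene, for both slif (0.93) and gb (0.93), CG30344 for mnd (0.98), CG14160 for JhI-21 (0.97), CG9705 for CG1139 (0.99) and CG9706 for CG8785 (0.97). These are descriptions of 6 points each.

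Other carriers of the same families were read from lists made with earlier results of these data known. In edgeR 0 of their genes passed over all genes. Beyond the members, 4 of 7 listed SLC36-type genes were tested, with 3 above 0 and a median log2 fold change of 0.09, which turned to -0.06 with total counts and to -0.15 without 9G8-RNAi replicate D. CG4991 measured 29.9 ± 6.99 CPM with the RNAi and 28.1 ± 6.05 CPM without it (SD, n = 3), and CG16700 10.2 ± 4.05 and 9.71 ± 1.64 CPM. CG7888 measured 3.38, 9.33 and 13.8 CPM under 9G8 RNAi, against 62.2, 0.61 and 2.42 CPM. Control replicate A alone was thus the highest and the other controls the lowest of the 6.

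All 8 other genes of the SLC7 list, which includes CD98hc, the heavy chain that LAT-type carriers pair with, were tested, and 7 of 8 lay below 0 with a median of -0.82. Without control replicate A the median was -0.04 and 5 of 8 lay below 0. In 5 of the 8 the highest TMM-scaled value was that of control replicate A, against 26.6% of all tested genes. CD98hc measured 32.3, 27.1 and 32.8 CPM under 9G8 RNAi, against 62.2, 36.1 and 30.9 CPM. Only that 1 control was clearly above the other libraries. The amino acid carrier gene sbm was also highest in control replicate A, at 51.9, 37.2 and 36.2 CPM against 90.1, 38.9 and 44.2 CPM, and CG7255 measured 30.0 ± 10.03 and 29.7 ± 0.56 CPM (SD, n = 3).

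Among the other SLC6 genes 13 of 19 were tested, 9 of them below 0 with a median of -0.32, which was 0.08 without control replicate A. By mean CPM, not corrected for length, the highest were CG1698, at 19.8, 20.7 and 15.5 CPM against 37.2, 12.8 and 10.8 CPM, and ine, at 8.35, 6.97 and 11.5 CPM against 61.4, 9.78 and 4.78 CPM. Both were highest in control replicate A, while CG15279 measured 9.26 ± 2.02 and 10.3 ± 1.09 CPM (SD, n = 3). Of the glutamate transporters and SLC38-type genes 2 of 4 were tested, Eaat1 at 34.0 ± 22.0 and 24.2 ± 17.2 CPM and CG30394 at 12.6 ± 2.43 and 12.9 ± 3.15 CPM (SD, n = 3). By TMM-scaled value 5 of the 13 SLC6 genes (38.5%) were highest in control replicate A, against 26.6% of all tested genes. Of the 2 glutamate transporter and SLC38-type genes 0 were. The muscle, hindgut and Malpighian tubule sums of that control given above were also high, and their part in the values was not tested.

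**Figure D4:**
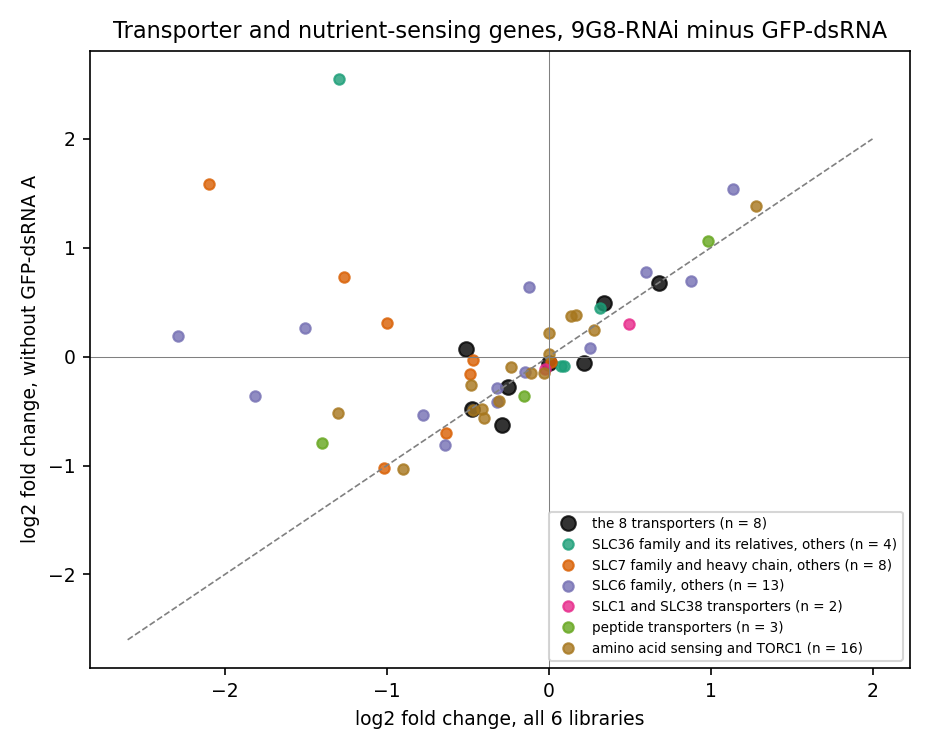
Log2 fold change of each tested gene of the transporter and nutrient-sensing lists, 9G8-RNAi minus GFP-dsRNA, with all 6 libraries (x axis) and without control replicate A (y axis); the dashed line marks equal values. NAAT1, path and CG8785 lie near the line, while CG1139 moves from -0.51 to 0.07 and several other SLC7 and SLC6 genes lie far above it.

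Peptides are taken up by a separate family of proton-coupled carriers. All 3 listed genes were tested, with a median log2 fold change of -0.15, which turned to 0.09 without 9G8-RNAi replicate B and to 0.07 without control replicate B, and was -0.40 without 9G8-RNAi replicate A. CG2930 was abundant, at 606, 295 and 477 CPM under 9G8 RNAi, against 383, 671 and 477 CPM, and the groups overlapped. At 97.2 CPM per kilobase on average, its level was above that of slif at 50.6. The peptide carrier gene yin measured 1.15, 0.69 and 0.88 CPM against 4.09, 1.595 and 1.43 CPM, and CG9444 1.71, 3.05 and 1.98 CPM against 1.27, 0.82 and 1.33 CPM. Neither overlapped between groups with TMM scaling, where 8.61% of tested genes did not, but both overlapped in CPM of total counts. Their unadjusted p in edgeR were 0.023 and 0.036, where 4.53% of tested genes were under 0.05. The edgeR adjusted p was 0.918 for both. Without control replicate A the unadjusted p was 0.078 for yin, whose log2 fold change moved from -1.40 to -0.79, and 0.050 for CG9444.

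Of 18 listed genes of amino acid sensing and TORC1, 16 were found and tested, 6 above and 10 below 0 with a median of -0.17. With total counts 14 were below 0 with a median of -0.45, and with 1 library left out the median lay between -0.35 (without 9G8-RNAi replicate D) and -0.06 (without replicate B of either group). The transcription factor gene crc (ATF4) measured 220.4 ± 9.08 CPM with the RNAi and 196 ± 62.9 CPM without it (SD, n = 3). Thor, the translation repressor 4E-BP that TORC1 inhibits, measured 155, 142 and 67.4 CPM under 9G8 RNAi, against 58.9, 37.5 and 53.3 CPM. Every RNAi library was above every control, with a log2 fold change of 1.28 ± 0.41 (SE), an unadjusted p of 0.013 and an edgeR adjusted p of 0.799. Rheb, the small GTPase that activates TORC1, also had no overlap, at 46.7, 53.5 and 49.3 CPM against 41.5, 37.4 and 44.3 CPM, but its log2 fold change was only 0.28 ± 0.27 (SE, edgeR adjusted p = 0.918). On the lower side, Sesn, a sestrin that acts in leucine sensing and was picked after its values were seen, measured 16.2, 12.2 and 16.8 CPM against 24.0, 37.7 and 22.5 CPM. Its log2 fold change was -0.90 ± 0.31 (SE) with an unadjusted p of 0.020 and an edgeR adjusted p of 0.918, so it did not pass. With TMM scaling Thor, Rheb and Sesn were the 3 of 16 genes without overlap in this list, beside 8.61% of all tested genes. In CPM of total counts the groups overlapped for all 3.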

How the data were processed

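The deposited values are raw whole-number counts of reads per gene, with 1 file per library. The submitters' processing notes name build BDGP6 and the tools STAR 2.5.2b, Trimmomatic 0.36 and Subread 1.5.2 with its featureCounts, without settings such as strand. Symbols came from Ensembl release 115, which names 17137 of 17411 gene identifiers, and older symbols were matched through RefSeq synonyms. The fit across genes used R 4.3.3 and edgeR 4.0.16: filterByExpr, TMM factors (0.635 to 1.68), robust quasi-likelihood test across 9285 genes, Benjamini-Hochberg adjustment over all of them and a threshold of 0.05. The code was tested on simulated data. CPM are TMM-scaled unless total counts are named, and levels between genes are per kilobase of the deposited exonic length. Correlations used log2 CPM with a prior count of 2. No library was a repeat of another (chi-square per degree of freedom at least 245.6). Alternatives were other scalings and filters, DESeq2 1.42.0, limma-voom (limma 3.58.1), a block for replicate letter and every library left out in turn. After seeing the data, a term marking those 3 libraries where fewest genes were at 0 was added. They were 9G8-RNAi replicate D (2079 genes) and control replicates B (2342) and A (3025), so they were split unevenly between the groups. The other libraries had 5163 to 6091 genes at 0.

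The members and lists were chosen with earlier results of these data known. Named are the members, the target, up to 3 genes per further list (those past the threshold, otherwise by mean CPM) and, for each member, the gene with the highest Pearson r. Outside this rule, Sesn, tadr, blot and CG13795 were named after their values were seen, and markers where they describe a library. Symbols S6k and Lobe were not matched, nor were the markers wupA (muscle), Capa-R (Malpighian tubule) and esg (intestinal progenitor). Sequences are not used here.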

Additional observations from a re-analysis of the deposited data

How the results depend on the processing

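In all 16 alternatives 0 of the 8 transporters passed at an adjusted p of 0.05, and the smallest adjusted p of any member was 0.526, without GFP-dsRNA replicate D. The alternative with library sizes lacking the 20 genes with most counts still applied TMM factors. It nearly repeated the main fit (log2 fold change of NAAT1 0.68 against 0.681) and so is not a separate check. At an unadjusted p under 0.05 NAAT1 passed with DESeq2 (0.034, adjusted p 0.812) and with upper-quartile factors (0.049), and no member did in the other 14. Over all tested genes 622 of 16011 were under 0.05 with DESeq2 and 438 of 9285 with upper-quartile factors. The log2 fold change of NAAT1 ran from 0.38 to 0.83, that of path from -0.75 to -0.34, that of gb from -0.64 (without 9G8-RNAi replicate D) to -0.03 (without GFP-dsRNA replicate B), and that of JhI-21 from -0.44 (total counts) to -0.05 (without GFP-dsRNA replicate D). CG8785 turned to -0.235 with total counts, -0.013 with limma-voom and -0.004 with the replicate block. Leaving out 1 library moved CG8785 from -0.101 to 0.061, slif from -0.129 to 0.46, mnd from -0.01 to 0.618 and CG1139 from -0.926 to 0.073. The cause was not tested. The number of genes called, 11, was 17 with total counts, 50 with no low-count filter, 94 with DESeq2, 4 with limma-voom, 0 with the replicate block (217 at an unadjusted p under 0.05), 7 with the library term, and 0 to 11 with 1 library left out (0 without 9G8-RNAi replicate B, 253 unadjusted). Deviations of same-lettered libraries from their group means correlated at -0.02, -0.35 and -0.46 for A, B and D. Between libraries of different letters they ran from -0.165 to 0.496, both for 9G8-RNAi replicate B, with control replicates A and D. Deviations within a group of 3 libraries are tied to one another, so these values cannot decide whether letters pair the libraries. Identity between the members' proteins, listed as an alternative, was not run. With 3 libraries per group an exact permutation test cannot go below 0.1.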

Other observations

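Several low-abundance relatives of the transporters lay on opposite sides of 0 with and without control replicate A, and were picked out after their values were seen. Without that control 633 of 9564 tested genes had an unadjusted p under 0.05 in edgeR. The log2 fold change of CG7888, an SLC36-type gene, was -1.29 with all libraries and 2.55 without control replicate A (unadjusted p 0.011, edgeR adjusted p 0.502). For tadr, of the SLC7 family, it was -2.10 with all libraries, where control replicate A measured 9.33 CPM and the other 5 libraries at most 0.97 CPM, and 1.59 without that control (unadjusted p 0.0245, edgeR adjusted p 0.645). The SLC6 gene blot measured 12.5 CPM in control replicate A and at most 1.17 CPM elsewhere, and its log2 fold change was -2.29 with and 0.19 without that library. Among the SLC6 genes of low level, CG13795 kept its direction, at 1.14 with all libraries and 1.54 without control replicate A, and measured 1.11, 1.18 and 0.58 CPM in 9G8-RNAi and 0.64, 0.38 and 0.25 CPM in the controls, with overlap between the groups. None of these passed over all genes in edgeR in either fit.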
